A study of Mus musculus with 4 samples.

Results

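The 10 genes described here belong to the non-parenchymal side of the mouse liver: *Col1a1*, *Col1a2* and *Col3a1* (fibrillar collagen chains), *Dcn*, *Bgn* and *Sparc* (other matrix proteins), *Stab2*, *Lyve1* and *Clec4g* (receptors of the sinusoidal endothelium) and *Igfbp7* (a secreted vascular protein). They were taken by symbol from the gene counts of 4 libraries and are 10 of the 33924 gene symbols counted. The livers came from male C57BL/6Rj mice (strain C57BL6 in the labels) that differed in age, with pools at 3 months (Young in the labels), 9 months (Adult), 15 months (Old) and 21 months (Very old). The mice had food and water freely and a light and dark cycle, and the labels give no treatment or genetic change. Each library was a pool of 24 mice, with 4 mice at each of 6 times of the day, and there was 1 library per age. No value therefore has a replicate error, and the intervals given below cover counting error only. Even this error may be larger than they give, since reads amplified by PCR without molecular identifiers are not independent molecules. In a bulk sample, fewer cells of a type and less RNA per cell cannot be told apart.

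Hepatic stellate cells lie between the hepatocytes and the sinusoids, store vitamin A and are the main source of fibrillar collagen in the injured liver. Sinusoidal endothelial cells form a fenestrated wall without an organised basement membrane and take up hyaluronan, collagen fragments and other waste macromolecules through scavenger receptors. Decorin (*Dcn*) and biglycan (*Bgn*) are small leucine-rich proteoglycans that bind collagen and growth factors, and SPARC is a collagen-binding glycoprotein of the matrix. Stabilin-2 (*Stab2*) and LYVE1 bind hyaluronan, *Clec4g* encodes a C-type lectin of the sinusoid, and IGFBP7 is an insulin-like growth factor binding protein that is also found in vessel walls.

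The libraries were prepared from capped 5′-ends, so that a read marks the place where a transcript begins. The upstream sequences of 4 of the genes are therefore shown: *Stab2* and *Clec4g*, receptors with like counts in the younger and unlike counts in the older pools, and *Col1a2* and *Bgn*, matrix genes that were highest at 15 months. They are the 250 bases before the start of the gene, from RefSeq with its build GRCm38.p6, whereas the counts were made on mm9. Capitals mark matches on either strand to TATAAA (the TATA box), to CCAAT (the CCAAT box) and to GGGCGG (a GC box).
Stab2 (chr10:87007943-87008192, minus strand): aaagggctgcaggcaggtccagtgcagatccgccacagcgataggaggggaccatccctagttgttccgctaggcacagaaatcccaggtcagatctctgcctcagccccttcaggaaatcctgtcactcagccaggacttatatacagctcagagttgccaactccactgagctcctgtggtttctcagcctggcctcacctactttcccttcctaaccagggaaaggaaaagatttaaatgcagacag
Clec4g (chr8:3720652-3720901, minus strand): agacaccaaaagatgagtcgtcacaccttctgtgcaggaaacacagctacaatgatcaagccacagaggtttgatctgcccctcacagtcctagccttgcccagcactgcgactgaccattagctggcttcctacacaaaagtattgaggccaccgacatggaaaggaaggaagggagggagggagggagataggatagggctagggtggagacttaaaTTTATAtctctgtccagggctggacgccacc
Col1a2 (chr6:4505368-4505617, plus strand): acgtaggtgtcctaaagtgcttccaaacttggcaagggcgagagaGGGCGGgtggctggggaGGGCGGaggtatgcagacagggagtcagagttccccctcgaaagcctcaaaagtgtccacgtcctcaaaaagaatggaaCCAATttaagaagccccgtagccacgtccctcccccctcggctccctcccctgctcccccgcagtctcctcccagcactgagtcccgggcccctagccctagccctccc
Bgn (chrX:73483351-73483600, plus strand): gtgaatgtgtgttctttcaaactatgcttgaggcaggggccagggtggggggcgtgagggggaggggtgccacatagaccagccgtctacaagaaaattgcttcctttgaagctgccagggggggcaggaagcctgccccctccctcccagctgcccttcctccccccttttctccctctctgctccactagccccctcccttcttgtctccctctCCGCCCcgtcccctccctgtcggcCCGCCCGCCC
The window of *Clec4g* held a TATAAA on the opposite strand, 31 to 26 bases before the start, and that of *Stab2* held none of the 3 motifs. *Col1a2* had 1 CCAAT, 109 to 105 bases before the start, and 2 matches to GGGCGG further upstream, and *Bgn* had 3 matches to GGGCGG on the opposite strand, of which the last 2 overlap. Of 32851 promoters of the same length, 12.4% held TATAAA, 33.9% CCAAT and 32.7% GGGCGG. RefSeq windows were matched for 7 of the 10 genes, and 2 of these held TATAAA, 1 CCAAT and 3 GGGCGG. Their GC content ran from 35.2% (*Col3a1*) to 74% (*Igfbp7*), beside a median of 52.4% over all promoters.

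The counts on genes summed to between 525772 (15 months) and 958586 (9 months), so that 3 counts corresponded to 3.13 to 5.71 counts per 1000000 counts on genes (cpm). These were between 6.67% and 8.42% of all records of a library, as most records (72.2% to 76.7%) had no unique position. The 10 genes together took 834, 1014, 558 and 774 counts at 3, 9, 15 and 21 months, or 0.0872%, 0.106%, 0.106% and 0.105% of the counts on genes. The markers of hepatocytes were abundant in every library, with 102754 to 111699 cpm for 8 genes. The stellate and sinusoidal markers were detected as well but the labels give a whole tissue and the 10 genes are not restricted to a single cell type.

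Each gene was put to a pair of questions, whether its 4 counts differed by more than counting error, and whether its level followed age. For the first, a chi-square test (Pearson's, with 3 degrees of freedom) compared the counts with those expected from the geometric mean of each library. It compares the 4 libraries, not the ages. With Benjamini-Hochberg adjustment over 6172 genes, 5 of the 8 genes tested here passed an adjusted p of 0.05 (*Dcn*, *Col1a2*, *Stab2*, *Bgn* and *Lyve1*), where 34.9% of all genes tested passed. The share passing grew with depth, from 26.8% of the genes with fewer than 100 counts in total to 87.5% of those with 1000 or more. The 8 genes tested here had totals of 115 (*Lyve1*) to 950 (*Dcn*). In this range the share was 33.0% from 100 to below 200 counts, 44.1% from 200 to below 400 and 57.7% from 400 to below 1000. For the second question, a linear trend in age was fitted with edgeR's quasi-likelihood test, in which the departures from a line stand in for the missing replicates. It called 0 of the 8 genes (1 at an unadjusted p under 0.05, *Stab2*), and 6 of 5569 genes in all (0.108%), with 290 at an unadjusted p under 0.05. DESeq2's Wald test called 0 genes of either kind, and had 0 of the 10 genes and 123 of all genes at an unadjusted p under 0.05.

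**Figure D1:**
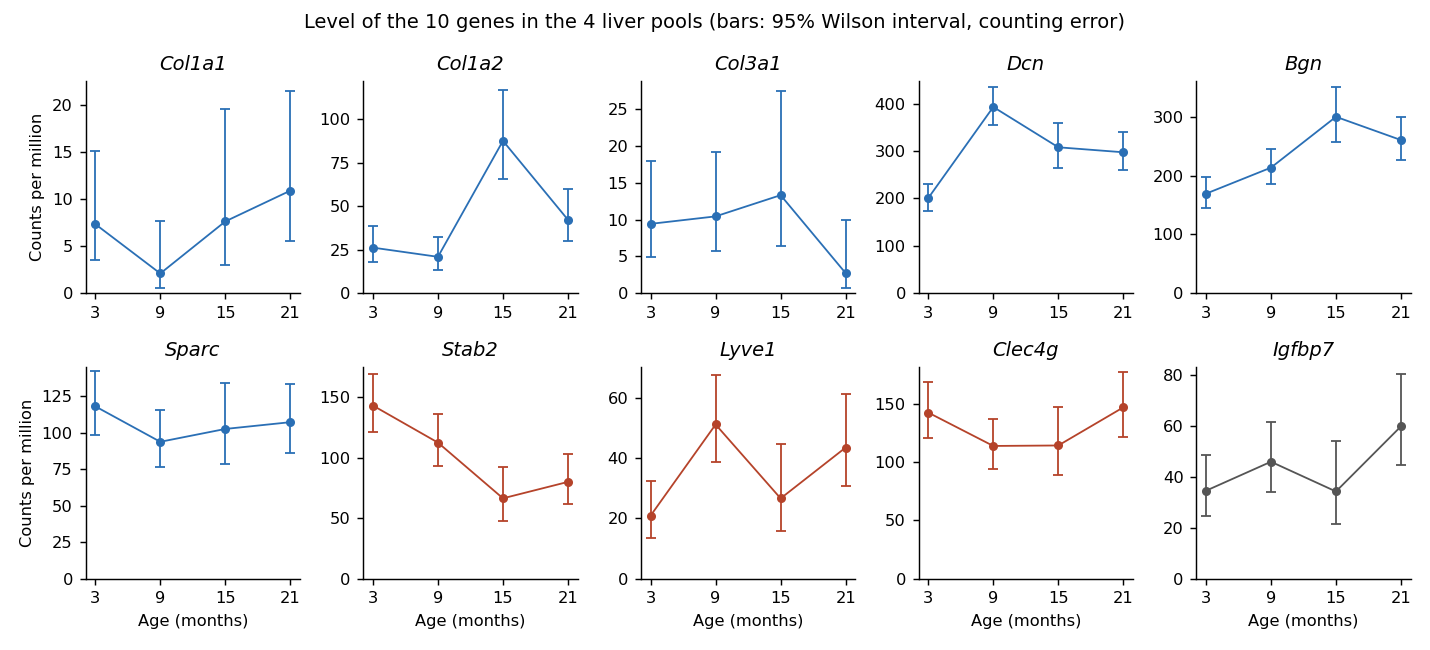
The cpm (y axis) of each of the 10 genes against the age of the pool in months (x axis), 1 library per point, with 95% Wilson intervals for counting error as bars (blue, matrix genes; red, sinusoidal receptors; grey, *Igfbp7*). *Dcn* is lowest at 3 and highest at 9 months, *Col1a2* stands out at 15 months, *Stab2* is lower at 15 and 21 months, and the intervals of *Sparc* and of *Clec4g* overlap at all ages.

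The chains of type I and type III collagen were the least counted of the matrix genes. *Col1a2*, on chromosome 6 (4454814 to 4491543, plus strand, mm9), had 25, 20, 46 and 31 counts at 3, 9, 15 and 21 months, or 26.2, 20.9, 87.5 and 42.1 cpm. The 15 month pool was the highest, and its Wilson interval (65.6 to 117 cpm) did not reach those of the other pools. After scaling by the geometric means, it was 3.06 times the 3 month pool (exact Clopper-Pearson 95% interval 1.84 to 5.20) and 3.74 times the 9 month pool (2.17 to 6.67). The level at 21 months was 0.513 of that at 15 months (0.314 to 0.826), and between 21 and 3 months the interval included no difference (ratio 1.57, 0.896 to 2.77). The chi-square test with Benjamini-Hochberg adjustment gave an adjusted p of 7.88e-07, which rose to 0.144 without the library of 15 months. The fitted log2 change from 3 to 21 months was 1.27 (SE 0.64; edgeR, adjusted p = 0.955), and it was 0.77 without the library of 15 months and 2.65 without that of 21 months.

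The partner chain *Col1a1*, on chromosome 11 (94797538 to 94814356, plus strand), had 7, 2, 4 and 8 counts, and *Col3a1*, on chromosome 1 (45368383 to 45406551, plus strand), had 9, 10, 7 and 2. Type I collagen is built from both the *Col1a1* and the *Col1a2* chain, yet the peak of *Col1a2* at 15 months had no counterpart that could be seen in 4 counts of *Col1a1* (15 against 3 months, ratio 0.95, 0.204 to 3.74). *Col3a1* had its lowest count at 21 months, with a ratio to 3 months of 0.281 (0.0295 to 1.36). All 6 pairs of ages had intervals that included 1 for both genes. Both fell under the minimum of 5 expected counts, *Col3a1* only just (4.997 at 15 months), and with no minimum their adjusted p was 0.339 and 0.353. For 15 against 3 months, the intervals of *Col1a1* (0.204 to 3.74) and *Col3a1* (0.409 to 3.90) both included the ratio of *Col1a2*.

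The small proteoglycans were the best counted of the 10 genes. *Dcn*, on chromosome 10 (96942245 to 96980777, plus strand), had 192, 377, 162 and 219 counts, or 201, 393, 308 and 298 cpm. The 3 month pool was the lowest and the 9 month pool the highest, with both others between them. The level at 9 months was 2.01 times that at 3 months (1.68 to 2.40), and those at 15 and 21 months were 1.40 (1.13 to 1.74) and 1.44 (1.18 to 1.76) times that at 3 months. The last 2 pools did not differ beyond counting error (1.03, 0.835 to 1.27). The adjusted p of the chi-square test was 9.74e-13, and it stayed under 0.05 in all 9 alternatives. The fitted trend was 0.29 on the log2 scale (SE 0.41; edgeR, adjusted p = 0.998). It turned to -0.71 without the library of 3 months, and was 0.60 without that of 9 months and 0.88 without that of 21 months.

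*Bgn*, on the X chromosome (70728941 to 70741272, plus strand), had 162, 205, 158 and 192 counts, or 169, 214, 301 and 261 cpm. It was again lowest at 3 months, but highest at 15 instead of 9 months. The ratio to the 3 month pool was 1.29 (1.05 to 1.60) at 9 months, 1.62 (1.29 to 2.03) at 15 months and 1.5 (1.21 to 1.86) at 21 months, so that all 3 intervals lay above 1. The older pools of 15 and 21 months did not differ beyond counting error (0.924, 0.745 to 1.15). The chi-square test gave an adjusted p of 0.000456, which became 0.234 without the 3 month library. The fitted trend was 0.67 on the log2 scale (SE 0.39; edgeR, unadjusted p = 0.0923, adjusted p = 0.998), and it was 0.33 without the library of 3 months and 1.18 without that of 21 months.

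*Sparc*, on chromosome 11 (55208002 to 55233582, minus strand), had 113, 90, 54 and 79 counts, or 118, 93.9, 103 and 107 cpm. No pair of libraries differed beyond counting error, and 21 against 3 months gave a ratio of 0.884 (0.655 to 1.19). The adjusted p of the chi-square test was 0.501, which does not show that the levels were equal. The interval leaves room for a decrease to 0.655 or an increase to 1.19 times the level at 3 months.

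Because *Sparc* was sequenced in the same pools as the other matrix genes, counts were also compared within a library, which needs no scaling between libraries. These pairs were chosen after the values had been seen and are given as a description. The count of *Dcn* divided by that of *Sparc* was 1.70 (1.34 to 2.16) at 3 months, 4.19 (3.32 to 5.33) at 9 months, 3.00 (2.19 to 4.16) at 15 months and 2.77 (2.13 to 3.63) at 21 months. For *Bgn* over *Sparc* the ratio was 1.43 (1.12 to 1.84) at 3 months and 2.28, 2.93 and 2.43 at the later ages. The 3 month interval of *Dcn* over *Sparc* lay below that of the pools of 9 and 15 months and overlapped slightly with that at 21 months. *Col1a2* over *Sparc* was 0.221 and 0.222 at 3 and 9 months, 0.852 (0.562 to 1.29) at 15 months and 0.392 (0.250 to 0.601) at 21 months. The proteoglycans also differed from each other, as *Dcn* over *Bgn* was 1.84 (1.55 to 2.19) at 9 months and between 1.03 and 1.19 at the other ages.

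**Figure D2:**
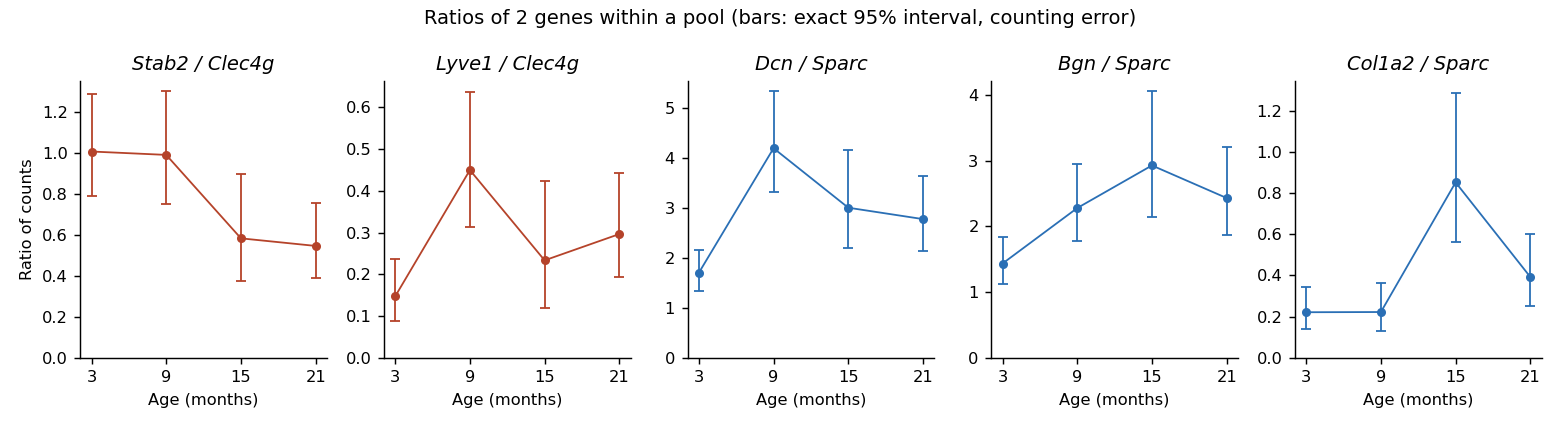
Ratio of the counts of a pair of genes in the same pool (y axis) against age in months (x axis), 1 library per point, with exact 95% intervals for counting error as bars. *Stab2* over *Clec4g* is near 1 at 3 and 9 months and 0.583 and 0.546 at 15 and 21 months, and *Dcn* and *Bgn* over *Sparc* are lowest at 3 months.

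The receptors of the sinusoidal endothelium did not move together. *Stab2*, on chromosome 10 (86303943 to 86470770, minus strand), had 137, 108, 35 and 59 counts, or 143, 113, 66.6 and 80.2 cpm. The levels were higher in both younger than in both older pools. The Wilson interval at 3 months (121 to 169 cpm) lay above those at 15 months (47.9 to 92.6) and 21 months (62.2 to 103). Against 3 months, the ratio was 0.806 (0.621 to 1.05) at 9 months, 0.425 (0.284 to 0.620) at 15 months and 0.545 (0.394 to 0.744) at 21 months. The intervals of 15 and 21 against 9 months were also below 1 (0.527, 0.349 to 0.778, and 0.676, 0.483 to 0.936), whereas 21 against 15 months included it (1.28, 0.830 to 2.01). The chi-square test gave an adjusted p of 1.85e-05, and it stayed under 0.05 in all 9 alternatives, the highest being 0.00841. The fitted log2 change from 3 to 21 months was -1.0 (SE 0.43), with an unadjusted p of 0.0226 and an adjusted p of 0.80 (edgeR), so that the trend itself did not pass. It was -1.66 without the library of 21 months, and negative without any other as well.

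*Clec4g*, on chromosome 8 (3707064 to 3720651, minus strand), had 136, 109, 60 and 108 counts, or 142, 114, 114 and 147 cpm. At 3 and 9 months its counts lay within 1 of those of *Stab2*. The ratio of 21 to 3 months was 1.0 (0.773 to 1.30), and none of the 6 pairs of ages differed beyond counting error, although 15 against 3 months came close (0.733, 0.532 to 1.001). The adjusted p of the chi-square test was 0.182, and the fitted log2 trend was 0.01 (SE 0.40; edgeR, adjusted p = 0.999), with values from -0.54 without the library of 21 months to 0.45 without that of 3 months. *Stab2* over *Clec4g* within a library was 1.01 (0.789 to 1.29) at 3 months and 0.991 (0.752 to 1.30) at 9 months. It was 0.583 (0.373 to 0.900) at 15 months and 0.546 (0.391 to 0.757) at 21 months. The 15 month interval overlapped those of both younger pools. The 21 month interval lay below that of 3 months and only just reached that of 9 months. The pairs of receptors, as those of matrix genes, were chosen after the values had been seen and are a description.

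*Lyve1*, on chromosome 7 (117994121 to 118006467, minus strand), had 20, 49, 14 and 32 counts, or 20.9, 51.1, 26.6 and 43.5 cpm. The pools of 9 and 21 months were high and those of 3 and 15 months low, an alternation that follows no order of age. The ratio to 3 months was 2.51 (1.46 to 4.45) at 9 months and 2.02 (1.12 to 3.73) at 21 months, and 15 against 9 months gave 0.465 (0.237 to 0.855). The chi-square test gave an adjusted p of 0.00586, which became 0.103 without the library of 3 months and 0.0831 without that of 9 months. Its trend was 0.54 on the log2 scale (SE 0.64; edgeR, adjusted p = 0.998), but -0.49 without the library of 3 months and 0.98 without that of 9 months. *Lyve1* over *Clec4g* was 0.147 (0.0871 to 0.236) at 3 months and 0.450 (0.314 to 0.635) at 9 months, and *Lyve1* over *Stab2* went from 0.146 at 3 months to 0.542 at 21 months.

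*Igfbp7*, on chromosome 5 (77778265 to 77837070, minus strand), had 33, 44, 18 and 44 counts, or 34.5, 45.9, 34.2 and 59.8 cpm. The 21 month pool was the highest, at 1.69 times that of 3 months (1.05 to 2.73) and 1.86 times that of 15 months (1.05 to 3.42). Its chi-square test missed the threshold (unadjusted p = 0.0498, adjusted p = 0.110), and passed it with *Atp5h*, *Gsk3b* and *Sirt2*, the core marker genes of the study, as the scale (adjusted p = 0.0440). The fitted trend was 0.58 on the log2 scale (SE 0.55; edgeR, adjusted p = 0.998), and it was -0.01 without the library of 21 months. When every stretch of 35 bases from the beginning of its transcripts was searched, 19.4% of them had a further match in the genome with at most 1 mismatch, so that reads of *Igfbp7* may have been lost as not unique. For *Sparc* this share was 2.27%, and for the other genes 0. Other stretches had no match in the genome, as those across an exon junction. These were 42 of 132 for *Col3a1*, 30 of 198 for *Col1a2*, 29 of 132 for *Clec4g* and 18 of 132 for *Stab2*. Reads from them may have been lost as well.

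**Figure D3:**
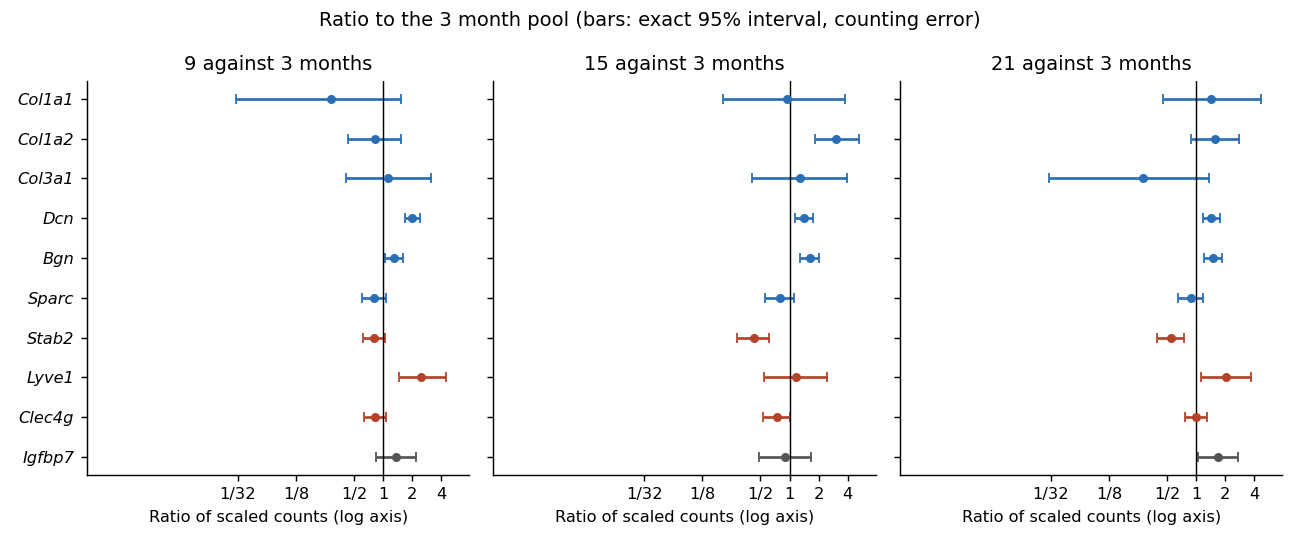
Ratio of the scaled counts of the pools of 9, 15 and 21 months to the 3 month pool for each gene (x axis, logarithmic), with exact 95% intervals for counting error as bars. All 3 intervals of *Dcn* and of *Bgn* lie above 1, those of *Stab2* at 15 and 21 months lie below 1, and those of *Col1a1* and *Col3a1* are wide and include 1.

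Between 21 and 3 months, 9 of the genes had at least 5 expected counts in both libraries. Of these, 3 were at least 1.5-fold higher at 21 months (*Lyve1*, *Igfbp7* and *Col1a2*) and 1 was lower (*Stab2*), where 46.2% of all genes were past this fold in either direction. *Bgn* lay just under it. The median log2 ratio was 0.53 over these 9 genes and -0.04 over all genes. The exact interval excluded 1 for 5 genes, with *Dcn*, *Bgn*, *Lyve1* and *Igfbp7* higher and *Stab2* lower. The share of all genes with such an interval was not computed, so this number is a description only. With *Atp5h*, *Gsk3b* and *Sirt2* as the scale, which moves all log2 ratios of 21 to 3 months by 0.20, the number past the fold was 7 instead of 4.

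The other pairs of ages share libraries with this one and are no independent evidence. Against 3 months, 2 genes were higher and 0 lower past 1.5-fold at 9 months (46.0% of all genes in either direction), and 2 were higher and 1 lower at 15 months (46.7%). Between 9 and 15 months, 1 was higher and 3 were lower at 15 months (43.1% of all genes), and between 9 and 21 months 1 was higher and 1 lower (44.2%). From 15 to 21 months, 3 were higher and 1 lower (46.4%). Over the 4 pools, the lowest cpm was at 9 months for 4 of the genes, at 3 months for 3, at 15 months for 2 and at 21 months for 1. These ages depend on the scale. With counts scaled by the geometric means, *Sparc* (74.1 at 15 and 76.0 at 9 months) and *Clec4g* (82.4 and 92.1) were lowest at 15 instead of 9 months.

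In the RNA-sequencing step of the study, the stability of a gene was judged from its centred log-ratio (clr). This is taken here as the natural logarithm of its count relative to the geometric mean of the library. The study also judged its candidates by Nanostring hybridization, public data and fold changes, which were not used here. A high mean and a low variance of clr over the ages, each relative to the median of all genes, were wanted of a marker gene. Over 8704 genes above 0 in every library, the median mean was -0.21 and the median variance 0.160. The study worked with its own set of 5′-ends that reached a minimum number of reads, so these medians are not its cut-offs. Of the genes described here, 6 met both (*Dcn*, *Bgn*, *Sparc*, *Stab2*, *Clec4g* and *Igfbp7*), as did 38.1% of all genes. *Sparc* had the smallest variance of the 10, 0.0107, which is no larger than the 0.0128 that counting error alone gives, and 4.04% of all genes had a smaller one. The variance of *Clec4g* was 0.0240 (counting error 0.0106). *Stab2*, with 0.148, was just inside the median although its counts differed by the chi-square test, and *Lyve1* (0.192) and *Col1a2* (0.342) were outside. For *Col1a1* (0.481) and *Col3a1* (0.499), counting error alone gives a variance of 0.254 and 0.213.

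**Figure D4:**
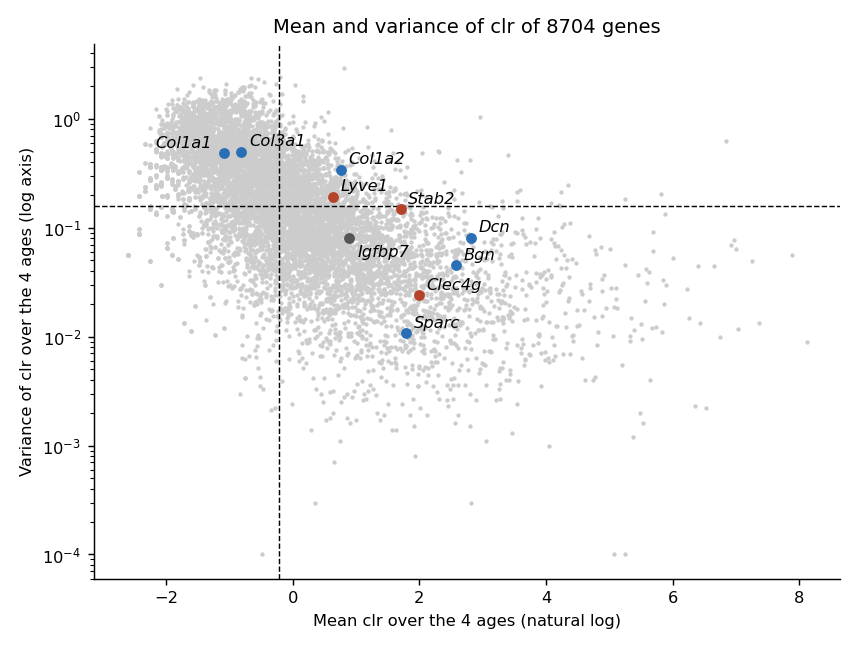
Variance of clr over the 4 ages (y axis, logarithmic) against the mean of clr (x axis, natural logarithm) for 8704 genes in grey, with the 10 genes in colour and the medians of all genes as dashed lines. *Sparc*, *Clec4g*, *Bgn*, *Dcn*, *Igfbp7* and *Stab2* lie in the lower right part, above the median mean and below the median variance.

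The profiles over the 4 ages were also compared with each other, after each had been centred on its own mean. Among the 8 genes with at least 100 counts, *Sparc* and *Clec4g* were the closest pair (Euclidean distance 0.148), although one is a matrix and the other an endothelial gene, and *Col1a2* and *Stab2* were the farthest apart (1.64). Among 2437 other genes with at least 100 counts, the profile nearest to *Stab2* was that of *Anpep*, a membrane aminopeptidase, with 157, 114, 38 and 66 counts (distance 0.0619). *Hist1h4a* followed at 0.0660. *Sparc* was nearest to *Fga*, which encodes a fibrinogen chain made by hepatocytes (0.0159), and to *Cyc1* (0.0274), and *Clec4g* to *Cr1l* (0.0235) and *Suox* (0.0309).

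*Dcn* was nearest to *Dbt* (0.0827) and *Rpl5* (0.112), *Bgn* to *Ei24* (0.0440) and *Saa4* (0.0698), and *Lyve1* to *Cyp2c54* (0.0973) and *Rhou* (0.150). For *Igfbp7* the nearest were *Sdr9c7* (0.0640) and *Lpar6* (0.0721). Nearest to *Col1a2* were *Ash1l* at 0.220 (25, 25, 43 and 31 counts) and *Gpr116* at 0.340. Counting error adds to a distance, and more so at few counts. Distances of genes of unlike depth are therefore not comparable. These distances rest on 4 libraries and describe likeness of the profiles only.

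Beside the numbers of the lists below, 34.9% of all genes tested passed the chi-square test, a share that grew with depth. At 21 against 3 months, 21.2% of all genes were at least 1.5-fold higher and 25.0% lower. Other matrix genes were few in counts. Of 14 other collagen chains, 6 had enough counts for the chi-square test and 1 passed, *Col14a1*, a collagen that lies on the surface of fibrils. It had 24, 66, 36 and 47 counts and, as *Dcn*, was lowest at 3 and highest at 9 months (adjusted p = 0.000739, chi-square test with Benjamini-Hochberg adjustment). The median log2 ratio of 21 to 3 months was -0.26 over 8 chains, with 3 at least 1.5-fold higher and 2 lower. Of 16 genes of collagen folding and cross-linking, 1 of 7 tested passed, *Bmp1*, a procollagen C-proteinase, with 27, 56, 28 and 40 counts (adjusted p = 0.0360). The median over 9 of these genes was 0.34, with 3 higher and 1 lower. The trend test called 0 genes of either list.

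Among 27 other matrix proteins, 7 of 11 tested passed, but not in a common direction: the median log2 ratio of 21 to 3 months was -0.02 over 11 genes, with 3 higher and 4 lower. *Vtn*, the plasma protein vitronectin, was highest at 3 months with 5565, 3653, 2382 and 3585 counts (adjusted p = 7.22e-88). *Ecm1*, an extracellular matrix glycoprotein, was lowest at 3 months with 231, 358, 203 and 247 counts (9.69e-06). *Tgfbi*, a matrix protein induced by TGF-beta, had 120, 157, 110 and 168 counts and was 1.77 times as high at 21 as at 3 months (0.000218). *Fn1*, which encodes fibronectin, was lowest at 9 months with 1326, 1125, 804 and 1100 counts (0.000385).

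Of 9 genes of matrix turnover, 2 of 4 tested passed, both tissue inhibitors of metalloproteinases. *Timp3* had 16, 32, 7 and 38 counts (adjusted p = 0.000330) and *Timp2* 6, 23, 3 and 8 (0.00476), and both were lowest at 15 months. The median log2 ratio was 0.36 over 4 genes, with 2 higher and 1 lower. In the list of TGF-beta and PDGF signalling (16 genes), 2 of 9 tested passed. *Pdgfra*, a PDGF receptor of mesenchymal cells, had 8, 5, 16 and 7 counts and was highest at 15 months (0.00287), and *Smad7*, an inhibitor of TGF-beta signalling, had 7, 5, 6 and 16 counts and was highest at 21 months (0.0323). The median log2 ratio was 0.15 over 9 genes, with 2 higher and 3 lower. None of the matrix lists had a gene called by the trend test (edgeR).

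The markers of stellate cells were, by sum, lowest in the 3 month pool. The 16 genes summed to 316, 388, 567 and 477 cpm at 3, 9, 15 and 21 months, and 6 of the 10 tested passed the chi-square test. Of these 6, 5 were lowest at 3 months, as were *Dcn* and *Bgn*. *Reln*, a secreted glycoprotein, had 87, 121, 83 and 123 counts and was 1.79 times as high at 21 as at 3 months (adjusted p = 0.00243). *Colec11*, a collectin, had 50, 66, 45 and 72 counts (0.0359), and *Rgs5*, a pericyte regulator of G protein signalling, had 17, 26, 24 and 31 (0.0451). A further pair was picked out after the values had been seen: *Cygb*, with 6, 9, 21 and 9 counts, peaked at 15 months as *Col1a2* did, and *Ednrb*, an endothelin receptor, was the exception with 24, 9, 15 and 4 counts and its lowest level at 21 months.

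The median log2 ratio of 21 to 3 months was 0.84 over 11 stellate markers, beside -0.04 over all genes. Of these markers, 7 were at least 1.5-fold higher and 2 lower, where 21.2% and 25.0% of all genes were. No stellate marker was called by the trend test, with *Reln* at an adjusted p of 0.946 (edgeR). Some markers had few counts. *Acta2* and *Tagln*, the contractile genes of the list, had 1, 0, 2 and 4 and 3, 0, 1 and 9 counts, both with the most at 21 months. *Des* had 4, 1, 2 and 3 counts and *Gfap* 0 in every library. These genes were picked out after their values had been seen. What part the level of stellate markers had in the counts of *Dcn*, *Bgn* and *Col1a2* was not tested.

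The sinusoidal endothelial markers hardly differed by sum. The 29 genes summed to 1982, 2015, 2029 and 1939 cpm, a sum in which differences of single genes can cancel. Of 25 tested, 10 passed the chi-square test (34.9% of all genes) and 0 the trend test. Of the 10, 4 were highest at 3 months, 3 at 15, 2 at 9 and 1 at 21 months. *Stab1*, which encodes the paralogue stabilin-1, was highest at 21 months with 119, 127, 74 and 142 counts (ratio of 21 to 3 months 1.51, adjusted p = 0.0130), the age at which *Stab2* was at 0.545 of its level at 3 months. *Dnase1l3*, a secreted nuclease, was highest at 3 and lowest at 15 months as *Stab2* was, with 191, 185, 72 and 116 counts (0.00553).

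*Aqp1*, a water channel, had 284, 296, 133 and 176 counts (0.00532), and *Oit3*, a protein of the sinusoidal endothelium with a zona pellucida domain, had 224, 302, 193 and 197 (0.00124). The median log2 ratio of 21 to 3 months was -0.09 over 26 sinusoidal markers, with 3 at least 1.5-fold higher and 5 lower. Among the lower ones were *Cdh5* (ratio 0.322), *Egfl7* (0.406) and *Eltd1* (0.439), picked out after the values had been seen. Each passed the chi-square test and had a lower ratio than *Stab2* (0.545). Of 8 markers of other vascular endothelium, 0 of 5 tested passed (edgeR called 0 as well), and their sum ran from 105 to 120 cpm, with a median log2 ratio of -0.29 over 6 genes.

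**Figure D5:**
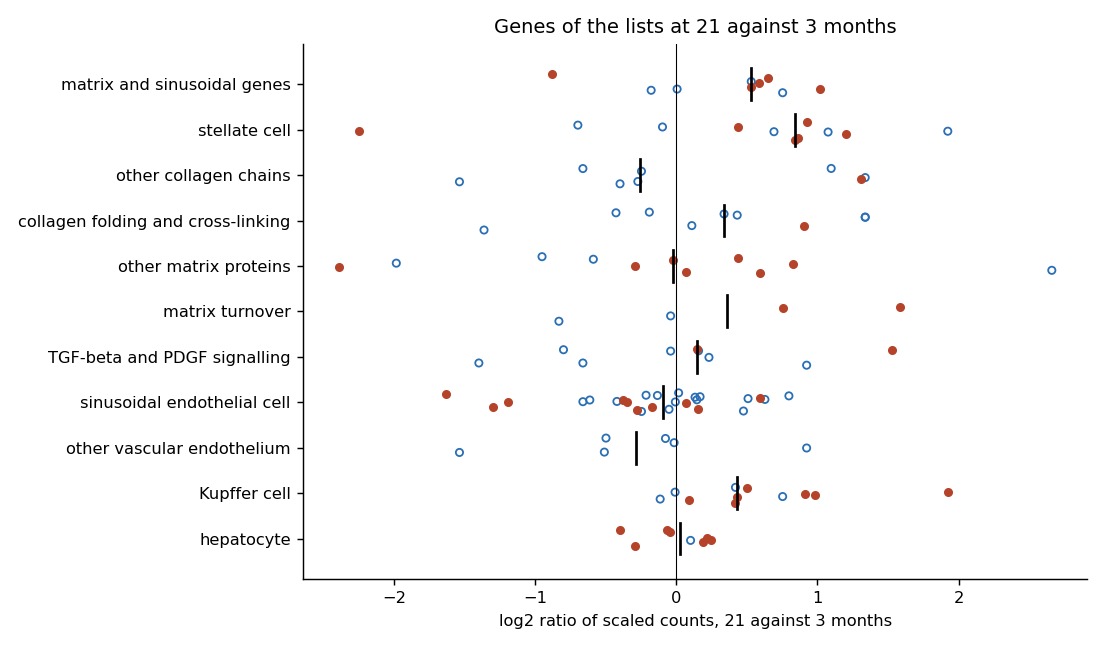
The log2 ratio of 21 to 3 months (x axis) for each gene with at least 5 expected counts in both libraries, by list (y axis); filled red points passed the chi-square test over the 4 libraries, open blue points did not or were not tested, and black bars are the medians. Of the lists drawn, the stellate markers have the highest median (0.84), and the sinusoidal endothelial markers lie around 0 (median -0.09).

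Markers of other cells in the liver are given for comparison. The 11 Kupffer cell markers summed to 870, 1033, 1040 and 1179 cpm, lowest at 3 and highest at 21 months, with 7 of 11 past the chi-square test and 4 at least 1.5-fold higher and 0 lower at 21 than at 3 months (median log2 ratio 0.43). The 6 bile duct markers summed to 16.7 to 41.8 cpm, with 1 of 2 past the test and *Epcam* at 0 in every library. The 3 mesothelial markers summed to 0 to 5.71 cpm, with *Msln* at 0. The 5 erythroid markers summed to 1376 to 2365 cpm, with 3 of 5 past the test. Their sum was highest at 9 months, as were *Hbb-b1* and *Hbb-b2*. *Hba-a1* and *Hba-a2* were highest at 15 months and *Alas2* at 3 months. The 8 lymphocyte markers summed to 6.28 cpm at 3 and 76.1 cpm at 21 months, and *Ighm*, with 2, 8, 19 and 39 counts, was the 1 gene of the lists called by the trend test (edgeR, adjusted p = 0.0127). The 8 hepatocyte genes had a median log2 ratio of 0.03, with 7 of 8 past the test and 0 past 1.5-fold. Their part in the values of the 10 genes was not tested.

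All 10 genes are annotated as protein-coding in GENCODE M1. Exons of 4 of them overlap other genes: *Col1a1* shares 109 bases with *Gm17329*, *Stab2* 141 bases with *Gm16268*, *Igfbp7* 85 bases with *AC141469.5* and *Polr2b*, all on the opposite strand, and *Clec4g* 536 bases with *Gm16553* on the opposite and the pseudogene *Gm9814* on the same strand. Whether strand was used in counting is not given in the sources used here, so that reads of both strands in these bases cannot be told apart. None of the overlaps falls in the first 100 bases from the outermost annotated start of the gene. Other transcript starts within the genes were not checked, and counts per gene do not show where the reads began.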

How the data were processed

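RNA of 24 mouse livers per age (1 μg each) was pooled, digested by the authors with a 5′-phosphate-dependent RNase, decapped and ligated to linkers. Forward reads of 35 bp were sequenced on 1 lane of a SOLiD 5500xl and aligned by the authors in the CLC Genomic workbench (mm9, similarity and length fraction 0.95). The submitters' processing notes name HTSeq, whose version, annotation and strand setting are not given in the sources used here. The deposited files hold raw counts per gene symbol, and reads without a unique position are not part of them. The last 5 entries of each file, which name no gene, were left out.

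Here, the chi-square test required 5 expected counts in every library, scaled by the geometric mean of genes above 0 in all libraries. The trend test was edgeR's quasi-likelihood test (TMM, filterByExpr, 2 residual degrees of freedom). Ratios have exact Clopper-Pearson 95% intervals and shares Wilson intervals. The ages of the highest and lowest level of a gene were taken from cpm. Named genes are the 10 genes, per list at most 4 genes past a test by summed count, and per gene the 2 nearest profiles. A gene that this rule would name is not reported here. The genes and lists were chosen with earlier results of these data known. Both tests were run on simulated data with larger changes and less spread than in these data, which does not show how they perform here. The alternatives were other scale factors (TMM, DESeq2, library totals, *Atp5h*, *Gsk3b* and *Sirt2*), no minimum, a pseudocount of 1 for clr, DESeq2's Wald test and leaving out each age. Positions and overlaps come from GENCODE M1 on NCBIM37 (mm9). The software was Python 3.11.15, numpy 2.4.6, pandas 2.3.3, scipy 1.17.1, matplotlib 3.10.9, R 4.3.3, edgeR 4.0.16 and DESeq2 1.42.0.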

Additional observations from a re-analysis of the deposited data

How the results depend on the processing

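With 1 library per age, neither test measures the spread between animals, and the depth limits *Col1a1* and *Col3a1* most. No paired analysis was possible because each age has 1 library. Of the summary values under each alternative, 52 stayed close to the value given and 8 moved. Fitted trends that were no call changed sign for 5 of the 8 genes: leaving out 1 library gave -0.71 to 0.88 for *Dcn*, -0.37 to 0.18 for *Sparc*, -0.49 to 0.98 for *Lyve1*, -0.54 to 0.45 for *Clec4g* and -0.0057 to 0.72 for *Igfbp7*. With the 3 core marker genes as the scale, the trend of *Sparc* was 0.054, and that of *Clec4g* was -0.0080 with no filter and -0.0075 with DESeq2's Wald test. The signs of *Col1a2*, *Bgn* and *Stab2* held in every alternative. The number of genes called by the age trend was 6, and it was 2 with library totals, 3 with *Atp5h*, *Gsk3b* and *Sirt2* as the scale, 0 with DESeq2's Wald test and 7 to 23 when 1 library was left out (16 without that of 15 months, 23 without that of 21 months). None of the 10 genes was called by the trend in any of these. Without 1 library, the chi-square test called 1405 to 1791 genes instead of 2152, with 1405 without that of 3 months, where 3 of the 10 genes passed instead of 5 (range 3 to 5). The calls of *Bgn* and *Lyve1* were lost there (adjusted p = 0.234 and 0.103), that of *Lyve1* also without 9 months (0.0831) and that of *Col1a2* without 15 months (0.144; chi-square test with Benjamini-Hochberg adjustment). *Igfbp7* passed with the 3 core marker genes as the scale (0.0440), where 7 genes instead of 4 were past 1.5-fold at 21 against 3 months. Library totals moved all log2 ratios of 15 to 3 months by 0.13 and the 3 core marker genes by 0.18.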

Other observations

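Other marker genes of the same pools, named by the rule used for the lists, had the following values (adjusted p of the chi-square test with Benjamini-Hochberg adjustment). Among the Kupffer cell markers, *Emr1*, the macrophage marker F4/80, had 66, 47, 39 and 98 counts at 3, 9, 15 and 21 months (adjusted p = 9.09e-07) and was 1.88 times as high at 21 as at 3 months. *Cd5l*, a secreted macrophage protein, had 302, 408, 226 and 319 counts (0.00101), *C1qc*, a chain of complement C1q, 88, 57, 35 and 94 (0.000201), and *Timd4*, a receptor for phosphatidylserine on resident macrophages, 16, 31, 34 and 25 (0.00154). By cpm, *Emr1* and *C1qc* were highest at 21 months and *Timd4* at 15 months. *Cd5l* was nearly level from 9 months on, with 426, 430 and 433 cpm at 9, 15 and 21 months. The fitted log2 change of *Ighm*, the heavy chain of immunoglobulin M, was 4.30 from 3 to 21 months (edgeR, adjusted p = 0.0127).

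*Spp1*, which encodes osteopontin, had 13, 10, 16 and 1 counts (adjusted p = 0.00212). The globin gene *Hbb-b1* had 865, 1511, 598 and 617 counts (3.46e-65) and *Hbb-b2* 475, 596, 224 and 268 (4.49e-16), both highest at 9 months. *Alas2*, the erythroid enzyme of haem synthesis, was instead highest at 3 months with 147, 101, 32 and 82 counts (1.14e-05). Among the hepatocyte genes, *Alb*, which encodes albumin, was 1.16 times and *Cyp2e1*, a cytochrome P450, 1.19 times as high at 21 as at 3 months, whereas *Ttr* (transthyretin) was at 0.757 and *Apob* (apolipoprotein B) at 0.818 of the level at 3 months.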
